A study of Mus musculus with 66 samples.

Results

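Transcripts of the canonical Wnt pathway were followed in C2C12 cells, a mouse myoblast line, after siRNA knockdown of subunits of the Paf1 complex (Paf1C), an assembly that travels with RNA polymerase II along genes. The members were 10 genes, Axin2, Axin1, Apc, Gsk3b, Ctnnb1, Lef1, Tcf7l1, Tcf7l2, Nkd1 and Znrf3, found by gene symbol. They were gathered around Axin2, whose RNA-seq level in these libraries was higher after knockdown of Paf1 and not after knockdown of Cdc73. The subject was thus chosen by the Axin2 levels in siPaf1, siCdc73 and siCtrl libraries, which are described here without a test. Of the 10 members, 6 were among the 9999 genes of the RNA-seq table and 10 were among the 15777 genes with sense sites in the 3'READS table, where they held 62 of 59578 poly(A) (pA) sites. The low-count filter left 5 members for testing in RNA-seq and 9 in 3'READS, with Nkd1 under the filter in both.

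Proliferating C2C12 cells were transfected for 48 h with 50 nM siRNA. The groups were a non-specific control (siCtrl, written siNS in the labels), siPaf1, siCdc73 and siSki8, where Ski8 is listed under its gene symbol Wdr61. RNA-seq counted reads in coding regions, and 3'READS counted PASS reads, which carry untemplated adenosines and so mark the pA site. Each assay had 7 libraries: siCtrl, siPaf1 and siCdc73 each in batch 1 and batch 2, and siSki8 in batch 2 only. Values are listed below in that order, batch 1 before batch 2. The labels do not say that batches are separate cultures, so the p-values measure the spread between these libraries. All knockdowns were compared with the same siCtrl libraries, and the single siSki8 library borrowed its spread from the replicated groups.

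In the canonical pathway, secreted Wnt ligands bind Frizzled receptors and the co-receptors Lrp5 and Lrp6, and Dishevelled proteins relay the signal. Without ligand, a destruction complex of Axin, Apc, the kinase Gsk3 and casein kinase 1 marks β-catenin for degradation. With ligand, β-catenin accumulates and joins TCF/LEF factors on target genes, of which Axin2 is a widely used reporter and itself a negative regulator. In muscle, Wnt signals act on precursor cells during development and repair.

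The libraries held 2796693 to 8160386 gene reads in RNA-seq and 5290791 to 14311581 sense PASS reads in 3'READS, and the lowest RNA-seq totals were those of siPaf1 and siCdc73 in batch 2. The siRNA targets fell in every case, with log2 changes (batch as a term of the fit) of -2.36 in RNA-seq and -2.55 in 3'READS for Paf1 after siPaf1, -2.54 and -1.96 for Cdc73 after siCdc73, and -4.09 and -3.48 for Wdr61 after siSki8. Paf1 rose after siCdc73, by 1.34 and 1.07. The summed level of 5 myotube markers in RNA-seq was 25.4 and 141 CPM (reads per 1000000 reads of the TMM-scaled library) in siCtrl, 56.9 and 285 in siPaf1, 21.2 and 191 in siCdc73 and 151 in siSki8. Within each batch the siPaf1 sum was above that of siCtrl. With batch as a term of the fit, 3 of the 5 markers rose after siPaf1, namely Actc1 by 1.98, Mylpf by 0.72 and Tnnt3 by 1.7. After siCdc73 Tnnt3 rose by 1.02 and Actc1 fell by 2.73. The 3'READS counterpart over 8 markers ranged from 75.6 CPM in siCdc73 batch 1 to 478 CPM in siPaf1 batch 2. Myoblast markers summed to 16300 to 36800 CPM in RNA-seq over 3 markers, with Myod1 not listed, and to 1830 to 2500 CPM in 3'READS over 4. In 3'READS, 2 of the 8 myotube markers rose after siPaf1 (Acta1 by 1.61 and Tnnt3 by 1.62) and 2 fell after siCdc73 (Myh3 by 1.38 and Myog by 1.58). There 4 were higher in siPaf1 than in siCdc73, with Actc1 the farthest apart (3.09, beside 4.71 in RNA-seq). That Actc1 difference rested on batch 2 in 3'READS (-0.75 in batch 1 and 3.73 in batch 2), whereas in RNA-seq it was 4.57 and 4.75. Over all genes tested in RNA-seq, 16.3% rose after siPaf1, and 19.4% rose and 20.5% fell after siCdc73. In 3'READS, 9.74% rose after siPaf1, 11.8% fell after siCdc73 and 8.08% were higher in siPaf1 than in siCdc73. Any part of these markers in the Wnt results was not tested. In bulk libraries a change in the number of cells of a type cannot be told apart from a change of RNA per cell.

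Axin2, which encodes a scaffold of the destruction complex that β-catenin itself induces, spans chr11:108781663-108812097 (mm9, plus strand). Its 4 pA sites are shown because the 3'READS values of Axin2 rest on them. Each window holds the 30 bases up to the pA site, read from the mm9 reference, and capitals mark an AATAAA or ATTAAA signal.
Axin2 intron, chr11:108790213-108790242, 3 PASS reads in all: aaagacttggcctttctctgtcctctctca
Axin2 intron, chr11:108796134-108796163, 5 PASS reads: agatgtcgAATAAAccagaaacttagggaa
Axin2 3'UTR, chr11:108812001-108812030, 5 PASS reads: atgcattataaagagttcatttaaagaaaa
Axin2 3'UTR, chr11:108812068-108812097, 31 PASS reads: gcctttATTAAAattttatatttttcaaaa
The most used site is the end of the annotated transcript, and it and an intronic site carry a signal.

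In RNA-seq, Axin2 had 20 and 20 reads in siCtrl, 316 and 266 in siPaf1, 6 and 5 in siCdc73 and 18 in siSki8. After TMM scaling these were 2.80 and 3.36 CPM in siCtrl, 45.4 and 92.8 in siPaf1, 0.929 and 1.6 in siCdc73 and 2.62 in siSki8. Per coding length and depth, the authors' RPKM values were 0.446 and 0.508, 7.40 and 14.1, 0.138 and 0.216, and 0.326. Both siPaf1 libraries stood above every other library and both siCdc73 libraries below every other library on each scale. Within batches, the siPaf1 level was 16.3-fold (batch 1) and 27.6-fold (batch 2) that of siCtrl, and the siCdc73 level was 0.332 and 0.474 times that of siCtrl. The siCdc73 levels rest on 6 and 5 reads, so the ratios to siCtrl there carry a large counting error.

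The order of the RNA-seq levels of Axin2 was siPaf1, siCtrl, siSki8 and siCdc73. The siSki8 level, from 1 library with no spread of its own, was not used in choosing the genes but the siCtrl levels beside it were, so its difference from siCtrl, -0.21 on the log2 scale and -0.57 with the batch term, is given as a description.

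In 3'READS, Axin2 was close to the limit of detection, with 0 and 3 PASS reads in siCtrl, 1 and 40 in siPaf1, 0 and 0 in siCdc73 and 0 in siSki8. The siPaf1 libraries thus disagreed: batch 2 stood above every other library at 2.65 CPM, whereas batch 1, at 0.129 CPM, lay below the 0.284 CPM of siCtrl in batch 2. A count of 0 to 3 reads in a library gives no fold here. The RNA-seq difference in batch 1 was therefore not seen at the pA sites at this depth. In siPaf1 batch 1, 1021 genes had an RPKM within 1.5-fold of that of Axin2, with a median of 7.62 CPM in 3'READS, and 21 of them were at or below Axin2. In siPaf1 batch 2, this held for 148 of 1207 genes, whose median was 15.6 CPM. The siPaf1 library of batch 2 in 3'READS also held 260 genes with at least 30 reads and over 20-fold above every other library, a number that was 0 in the other libraries, and no Wnt gene listed here was among them.

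**Figure D1:**
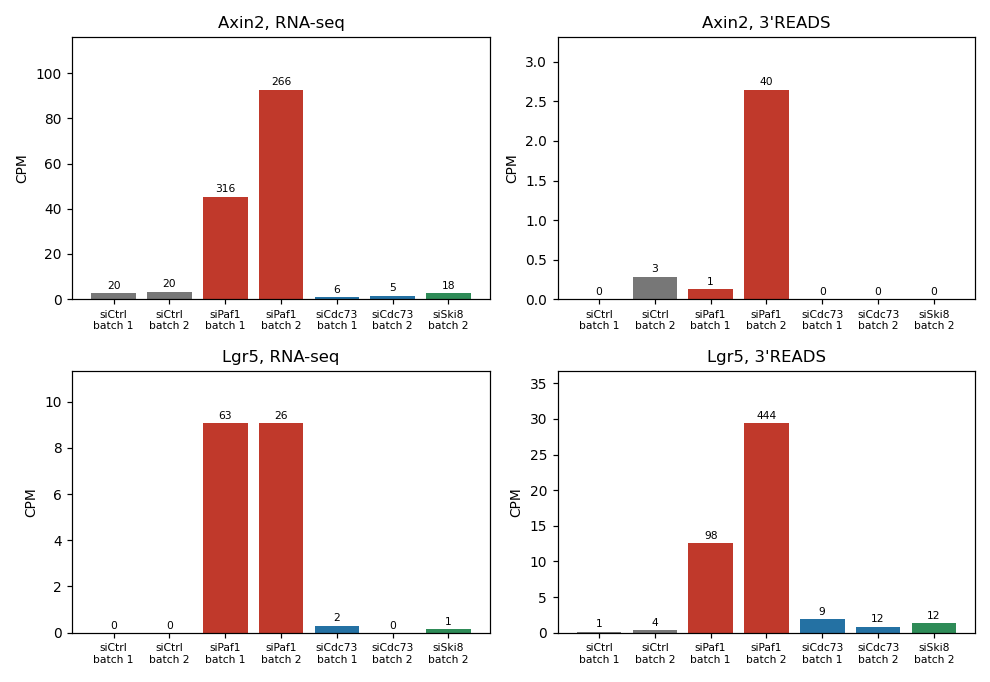
Levels of Axin2 (top) and Lgr5 (bottom) in each library in RNA-seq (left) and 3'READS (right), as CPM after TMM scaling on linear axes that start at 0, with the number of reads above each bar. Both siPaf1 libraries stand above the others for Lgr5 in both assays, whereas Axin2 does so in RNA-seq only, since its 3'READS count in siPaf1 batch 1 was 1 read.

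The genes whose RNA-seq pattern was most like that of Axin2 were sought by the root-mean-square difference of log2 CPM, each relative to its siCtrl mean, over the 7 libraries. The nearest was Cntfr, the ligand-binding subunit of the ciliary neurotrophic factor receptor, at 0.58. Irx3, an Iroquois homeobox factor, followed at 1.04, the cytokine Il33 at 1.09, Nacad at 1.18 and Nfatc4, a calcium-responsive transcription factor, at 1.27. None of the 5 was on a Wnt list used here. Relative to the siCtrl mean, Cntfr stood at 2.40 and 4.24 (log2) in siPaf1, -1.36 and -0.32 in siCdc73 and 0.01 in siSki8. Il33 shared the low siCdc73 values, at -1.22 and -1.24, whereas Irx3, Nacad and Nfatc4 were above the siCtrl mean in both siCdc73 libraries.

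The same genes were then read in 3'READS, which the search did not use. Irx3 had 5.25 and 5.01 CPM in siCtrl, 69.8 and 65.4 in siPaf1, 8.25 and 7.31 in siCdc73 and 5.35 in siSki8. Cntfr had 1.65 and 3.78 CPM in siCtrl, 9.55 and 31.7 in siPaf1, 0 and 0.639 in siCdc73 and 4.44 in siSki8. In both genes the siPaf1 libraries were the highest. The genes were chosen for high siPaf1 values in RNA-seq of the same batches, so this is a description.

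**Figure D2:**
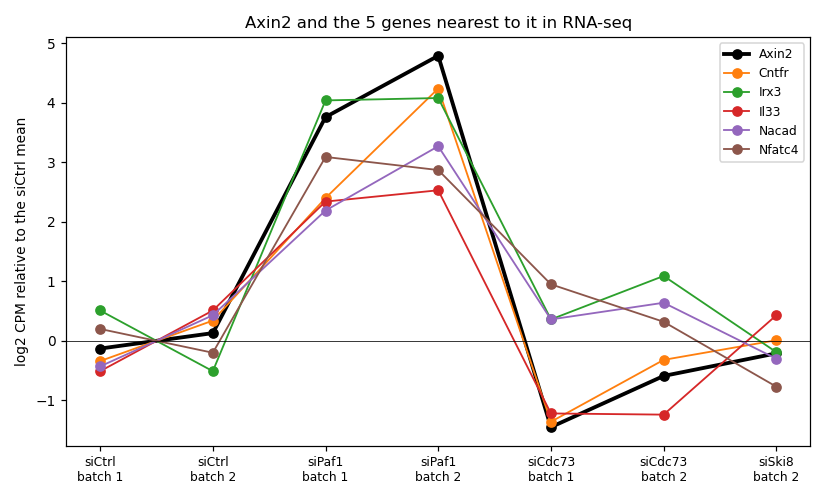
RNA-seq level of Axin2 and of the 5 genes most like it in each of the 7 libraries, as log2 CPM relative to the mean of the siCtrl libraries. All 6 genes are highest in the siPaf1 libraries, and only Axin2, Cntfr and Il33 are below the siCtrl mean in both siCdc73 libraries.

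The other members differed less between groups than Axin2 did. Without a batch term, edgeR's quasi-likelihood test called 0 of the 4, 4, 5 and 4 members tested in RNA-seq (siPaf1, siCdc73, siSki8, and siPaf1 against siCdc73) and 0 of 8, 8, 9 and 8 in 3'READS. The background was 0% of genes in each of these comparisons, and the siSki8 counts include Axin2. Without adjustment, a single member passed the edgeR threshold, Tcf7l2 after siSki8 in RNA-seq (edgeR unadjusted p = 0.0377). DESeq2 without the batch also called 0 members. Over all genes, the same unadjusted threshold was passed by 572 higher and 584 lower genes for siPaf1 and by 648 and 729 for siCdc73 in RNA-seq, and DESeq2 called 369 and 519 genes after adjustment. The batch numbers pair the libraries, and with the batch as a block the background was 16.3% higher and 16.2% lower genes after siPaf1 in RNA-seq, 19.4% and 20.5% after siCdc73, 2.93% and 2.5% after siSki8, and 14.6% and 13.6% for siPaf1 against siCdc73. In 3'READS it was 9.74% and 9.08%, 10.8% and 11.8%, 0.0795% and 0.0715%, and 8.08% and 6.3%. Against this background, the members called in RNA-seq were 1 higher (Ctnnb1) and 1 lower (Apc) after siPaf1, 1 higher (Ctnnb1) after siCdc73, 0 after siSki8 and 1 higher (Tcf7l2) in siPaf1 against siCdc73. In 3'READS 0 members were called with the block by edgeR or DESeq2, while 2 after siPaf1 (Apc and Ctnnb1), 2 after siCdc73 (Axin1 and Ctnnb1), 1 after siSki8 (Ctnnb1) and 1 in siPaf1 against siCdc73 (Apc) had an unadjusted p under 0.05. All calls named below are those of the fit with the block, with adjusted p-values over all genes tested.

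Ctnnb1 encodes β-catenin, the transducer of the pathway. It was the member with by far the most PASS reads, 251815 in all, and every read lay at a single 3'UTR site, shown here with its signal.
Ctnnb1 3'UTR, chr9:120869594-120869623 (plus strand): aatggttcagaATTAAActtttaattcatt
In RNA-seq, Ctnnb1 stood at 893 and 758 CPM in siCtrl, 1630 and 917 in siPaf1, 1470 and 1170 in siCdc73 and 833 in siSki8. All siPaf1 and siCdc73 libraries lay above the siCtrl libraries, and the siSki8 value lay between the siCtrl values. The log2 change was 0.58 (SE 0.22, adjusted p = 0.0411) after siPaf1 and 0.67 (SE 0.22, adjusted p = 0.0143) after siCdc73, so Ctnnb1 rose after both knockdowns. The siPaf1 call was lost without the library of siCtrl batch 1 or batch 2, siPaf1 batch 1, or siCdc73 batch 1 or batch 2, with adjusted p between 0.000656 and 0.344 over all alternatives. The siCdc73 call was lost without siCtrl batch 1, siCdc73 batch 1 or siCdc73 batch 2 and with library size as the only scaling, with adjusted p between 0.000151 and 0.293. In 3'READS the levels were 2540 and 2570 CPM in siCtrl, 4520 and 3510 in siPaf1, 3170 and 4620 in siCdc73 and 4530 in siSki8. In that assay no knockdown overlapped with siCtrl. The log2 differences there were 0.66 (SE 0.27, adjusted p = 0.107), 0.60 (SE 0.27, adjusted p = 0.131) and 0.79 (SE 0.35, adjusted p = 0.383) and did not pass the test. Ctnnb1 thus had a higher level in siCdc73 libraries in which Axin2 had its lowest values.

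Apc encodes the large scaffold of the destruction complex and lies on chromosome 18 (chr18:34380578-34481843, plus strand). Its RNA-seq levels were 334 and 205 CPM in siCtrl, 161 and 162 in siPaf1, 341 and 147 in siCdc73 and 182 in siSki8. Apc fell by 0.67 on the log2 scale after siPaf1 (SE 0.25, adjusted p = 0.0409). Both siPaf1 libraries were below both siCtrl libraries, but the size of the difference rested on batch 1: it was -0.20 (adjusted p = 0.537) without siPaf1 batch 1 and -1.17 (adjusted p = 2.75e-05) without siPaf1 batch 2. The call was also lost with DESeq2 (adjusted p = 0.0873) and without siCtrl batch 1 (0.192), siCtrl batch 2 (0.166), siCdc73 batch 1 (0.0513) or siCdc73 batch 2 (0.0507). In 3'READS Apc stood at 7.35 and 20.3 CPM in siCtrl, 3.10 and 12.4 in siPaf1, 7.60 and 19.1 in siCdc73 and 13.0 in siSki8. Batches differed more than groups there, and the siPaf1 difference of -0.90 (SE 0.35) had an adjusted p of 0.0767. Its intronic sites took 0 and 0 reads in siCtrl, 3 and 11 in siPaf1, 3 and 6 in siCdc73 and 1 in siSki8, beside 49 and 215, 21 and 177, 32 and 263, and 113 in the 3'-most exon. These sites were under 5% of the reads of Apc and were left out of the test of site classes.

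Axin1, the constitutive counterpart of Axin2 (chr17:26275631-26332756, plus strand), did not share its pattern. Its RNA-seq levels were 111 and 123 CPM in siCtrl, 123 and 94.2 in siPaf1, 93.0 and 82.0 in siCdc73 and 118 in siSki8. The siPaf1 libraries straddled those of siCtrl, with a log2 difference of -0.11 (SE 0.24, adjusted p = 0.751). The siCdc73 libraries lay below siCtrl in both assays, by -0.42 (SE 0.24, adjusted p = 0.158) in RNA-seq and -0.70 (SE 0.29, adjusted p = 0.0906) in 3'READS, where Axin1 had 35.7 and 52.8 CPM in siCtrl and 26.7 and 26.9 in siCdc73. Neither passed the test. Gsk3b, the kinase that phosphorylates β-catenin, was listed in 3'READS only and had 30.9 and 43.0 CPM in siCtrl, 27.0 and 50.7 in siPaf1, 29.5 and 46.4 in siCdc73 and 29.7 in siSki8. Its log2 differences were 0.03 (SE 0.28, adjusted p = 0.957) after siPaf1 and 0.02 (SE 0.28, adjusted p = 0.986) after siCdc73. Between its most used 3'UTR sites, the proximal to distal ratio differed by 1.17 on the log2 scale after siCdc73 (SE 0.60, adjusted p = 0.338). Such a shift was called with the block in 4.29% of 4567 genes after siCdc73, 6.79% after siPaf1, 0.307% after siSki8 and 2.08% in siPaf1 against siCdc73, and of the members tested for it, Gsk3b and Apc, 0 were called. The lowest unadjusted p of these, by edgeR with the block, was 0.0498 for Gsk3b after siCdc73. Antisense PASS reads upstream of start sites were called in 3.34% of 867 genes after siCdc73, and Gsk3b was not among them (adjusted p = 0.051).

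**Figure D3:**
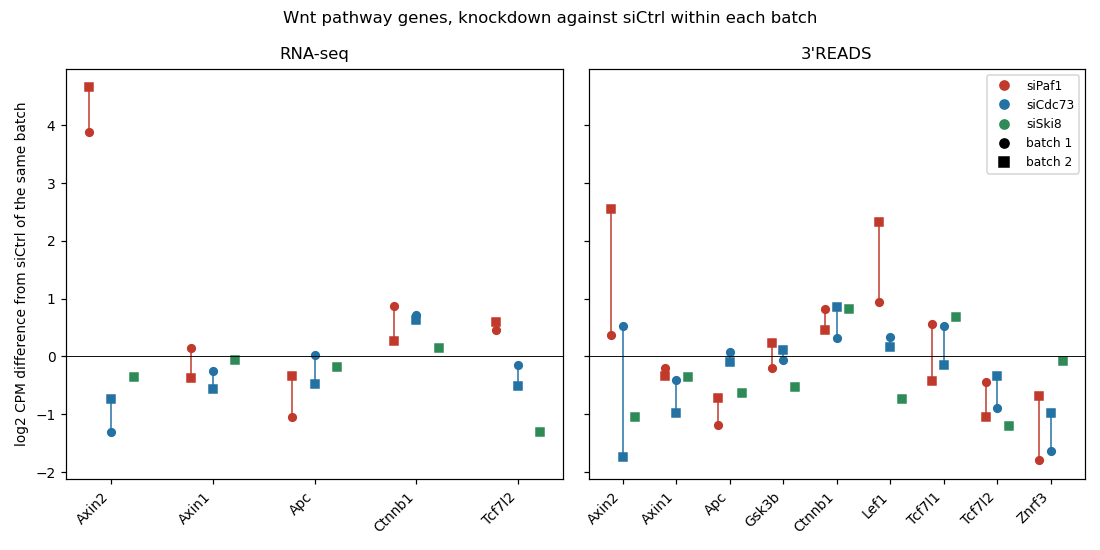
Log2 difference of CPM from the siCtrl library of the same batch for each member, in RNA-seq and in 3'READS. Circles are batch 1, squares are batch 2 and colours are the knockdowns. Axin2 after siPaf1 in RNA-seq lies at 3.89 and 4.66, while the RNA-seq values of the other members tested lie between -1.30 and 0.87.

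Of Lef1, Tcf7l1 and Tcf7l2, the nuclear partners of β-catenin among the members, Tcf7l2 was the only one listed in RNA-seq, at 35.4 and 21.5 CPM in siCtrl, 48.7 and 32.5 in siPaf1, 31.7 and 14.7 in siCdc73 and 8.59 in siSki8. The siSki8 library was the lowest. The log2 differences from siCtrl were 0.52 (SE 0.28, adjusted p = 0.156) after siPaf1, -0.32 (SE 0.29, adjusted p = 0.387) after siCdc73 and -1.25 (SE 0.40, adjusted p = 0.0508) after siSki8. Tcf7l2 was higher in siPaf1 than in siCdc73 libraries, by 0.83 (SE 0.29, adjusted p = 0.0292), the same direction as Axin2. That call was lost with DESeq2 (adjusted p = 0.0705) and without siCdc73 batch 1 (0.106), siCdc73 batch 2 (0.373) or siPaf1 batch 2 (0.0794). In 3'READS Tcf7l2 had only 1.37 to 4.95 CPM, and siPaf1 and siCdc73 did not separate there (log2 difference -0.11, SE 0.61, adjusted p = 0.916).

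Lef1, a β-catenin partner that is itself induced by Wnt signals, was listed in 3'READS only. It had 6 and 6 PASS reads in siCtrl, 16 and 55 in siPaf1, 5 and 10 in siCdc73 and 2 in siSki8, or 0.900 and 0.567, 2.07 and 3.64, 1.09 and 0.710, and 0.228 CPM. Both siPaf1 libraries were above every other library, but the log2 difference of 1.74 (SE 0.96) had an adjusted p of 0.156. Most of these reads lay upstream of the last exon, and the sites are shown because they separate the classes.
Lef1 intron, chr3:130818736-130818765 (plus strand), 34 PASS reads: gataaaatatatataaaatatatatatata
Lef1 intron, chr3:130826930-130826959, 19 PASS reads: aggatcaagagAATAAAtcctcaaacattg
Lef1 3'UTR, chr3:130926665-130926694, 14 PASS reads: gagtttgaAATAAAaacaagatgaaaagaa
Intronic sites took 4 and 3 reads in siCtrl, 14 and 33 in siPaf1, 5 and 9 in siCdc73 and 0 in siSki8. The 3'-most exon took 2 and 3, 2 and 22, 0 and 1, and 2. The 3'-most exon of Lef1 was thus above siCtrl in the siPaf1 library of batch 2 and not in that of batch 1, the same split by batch as for Axin2 in 3'READS. The upper intronic window is rich in A and T and holds neither signal.

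Tcf7l1, a TCF factor best known as a repressor (minus strand), had 1.35 and 4.07 CPM in siCtrl, 2.19 and 3.04 in siPaf1, 1.95 and 3.69 in siCdc73 and 6.60 in siSki8, with overlapping groups. Its leading sites are shown because the balance between them was tested.
Tcf7l1 intron, chr6:72737149-72737178, 29 PASS reads: agctcgAATAAAagttcatcttaaatatga
Tcf7l1 intron, chr6:72709865-72709894, 20 PASS reads: aagcccaAATAAAtcccttcttctaaatga
Tcf7l1 3'-most site, chr6:72576369-72576398, 155 PASS reads: caagagaaAATAAAattacagttgcaagac
All 3 windows carry a signal. Among sites that hold at least 5% of the gene's reads, upstream sites took 0 of 4 and 0 of 35 reads in siCtrl, 3 of 15 and 15 of 46 in siPaf1, 7 of 8 and 18 of 42 in siCdc73 and 6 of 54 in siSki8. The filter pools the reads of all libraries, and both intronic sites above passed it only through knockdown libraries. Intronic sites with siCtrl reads were left out by it. The absence of upstream siCtrl reads thus comes from the filter, and the test below is a description and no support. At the kept sites, 0 of 39 reads in siCtrl allows a share of up to 7.69%, counting error only. The shift towards upstream sites (CDS-APA) had an adjusted p of 0.0202 after siCdc73, against a background of 23.2% of 1766 genes called, and of 0.129 after siPaf1 (23% called). Without the block the siCdc73 value was 0.122 (4.13% called) and that of siPaf1 0.244 (2.38% called). Over all sites, however, intronic reads were 5 and 8 in siCtrl, 5 and 15 in siPaf1, 8 and 28 in siCdc73 and 10 in siSki8, beside 4 and 35, 12 and 31, 1 and 24, and 48 at the 3'-most site. Without the 5% filter the siCdc73 difference was 2.29 (log2, adjusted p = 0.431 with the block), so the call depends on leaving out the minor sites. It was also lost without siCtrl batch 1 (adjusted p = 0.0874), siCtrl batch 2 (0.44) or siCdc73 batch 1 (0.111).

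Besides Axin2, the feedback inhibitors among the members, Znrf3 and Nkd1, were barely detected. Znrf3, a ubiquitin ligase that removes Frizzled receptors, had 7 and 26 PASS reads in siCtrl, 1 and 23 in siPaf1, 0 and 17 in siCdc73 and 20 in siSki8. Batches differed more than groups, and its log2 differences were -1.15 (SE 1.10, adjusted p = 0.361) after siPaf1 and -1.47 (SE 1.16, adjusted p = 0.26) after siCdc73. Nkd1, an antagonist that binds Dishevelled, had 1 read in each siPaf1 library and 0 in the others in RNA-seq, and 3 reads in siPaf1 batch 2 and 0 elsewhere in 3'READS. These counts are at or under the floor of 3 reads per library, so no fold is given. Both genes are targets of β-catenin in many tissues. Neither showed a rise comparable to that of Axin2 at this depth, but Znrf3 was not listed in RNA-seq, where Axin2 rose. Among all pA sites of the members, 16 of 26 in last exons (61.5%) and 14 of 31 further upstream (45.2%) had a signal in the 30 bases before the site.

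Other targets of β-catenin were then read from a list of 24 genes that are known targets in several tissues. With Axin2 left out of the comparisons that chose it, 8 of them were tested in RNA-seq and 15 in 3'READS. After siPaf1, 2 rose (Lgr5 and Fst) and 2 fell (Cd44 and Fosl1) in RNA-seq, and 2 rose (Lgr5 and Id2) and 1 fell (Cd44) in 3'READS. Lgr5 passed the RNA-seq filter only through the siPaf1 libraries. Over all genes tested, 16.3% rose and 16.2% fell in RNA-seq, and 9.74% rose and 9.08% fell in 3'READS. The median log2 difference of the listed targets was 0.01 in RNA-seq and -0.22 in 3'READS, beside 0.02 and 0.08 over all genes tested. After siCdc73, 1 rose (Apcdd1) and 3 fell (Fst, Tcf7 and Cd44) in RNA-seq, and 1 rose (Id2) and 3 fell (Ccnd1, Wisp1 and Sox9) in 3'READS. Over all genes tested, 19.4% rose and 20.5% fell after siCdc73 in RNA-seq, and 10.8% rose and 11.8% fell in 3'READS. The medians of the listed targets were -0.41 and -0.26, beside -0.02 and -0.02 over all genes. After siSki8, 0 were called in either assay. The few targets called after siPaf1 went in both directions, at counts near the shares over all genes. No shift of the list in the direction of Axin2 was seen in its median. Without the block, edgeR called 0 genes of this list in any comparison. In RNA-seq 2 of 8 after siPaf1 and 1 of 8 after siCdc73 had an edgeR unadjusted p under 0.05. Over all 6521 genes tested, 572 higher and 584 lower did so after siPaf1, and 648 and 729 after siCdc73.

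Lgr5, a receptor for R-spondins that marks stem cells in several epithelia and a target of β-catenin, had siPaf1 values like those of Axin2. It had 0 and 0 RNA-seq reads in siCtrl, 63 and 26 in siPaf1, 2 and 0 in siCdc73 and 1 in siSki8. Against a floor of 3 reads per siCtrl library, its mean siPaf1 level was at least 19.6-fold higher. Lgr5 passed the low-count filter of RNA-seq only through the siPaf1 libraries, so its RNA-seq rise is a description and its calls there are no support. In 3'READS it had 0.150 and 0.378 CPM in siCtrl, 12.6 and 29.4 in siPaf1, 1.95 and 0.852 in siCdc73 and 1.37 in siSki8. Here both siPaf1 libraries were above every other library in both assays. The log2 change after siPaf1 was 5.43 (SE 0.67, adjusted p = 3.28e-05), the difference after siCdc73 was 1.6 (SE 0.83, adjusted p = 0.0755), and siPaf1 exceeded siCdc73 by 3.83 (SE 0.57, adjusted p = 4.09e-04). In 3'READS the siPaf1 call and that against siCdc73 held without each library in turn. The 3'READS reads of Lgr5 fell at a site that the authors assign to its 3'-most exon and that lies in a coding exon of the GENCODE model.
Lgr5, chr10:114889372-114889401 (minus strand): ctgacgtcATTAAAtttatacttctcgtga
The window carries an ATTAAA signal, and it took 1 and 4 reads in siCtrl, 98 and 429 in siPaf1, 9 and 12 in siCdc73 and 12 in siSki8.

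Fst, the activin antagonist follistatin, moved in opposite directions. In RNA-seq it stood at 25.7 and 8.91 CPM in siCtrl, 60.1 and 16.1 in siPaf1, 6.50 and 0.958 in siCdc73 and 3.35 in siSki8. Within each batch the siPaf1 library was above and the siCdc73 library below siCtrl. The log2 change was 1.04 (SE 0.32, adjusted p = 0.0113) after siPaf1 and -2.18 (SE 0.39, adjusted p = 2.63e-05) after siCdc73, and the difference between them was 3.22 (SE 0.39, adjusted p = 2.13e-07). The siPaf1 call was lost with DESeq2 (adjusted p = 0.0518) and without siCtrl batch 1 (0.32) or siPaf1 batch 1 (0.0853), whereas the other calls held without each library. In 3'READS Fst was at or under the floor.

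Tcf7, a TCF factor and β-catenin target, stood in RNA-seq at 25.7 and 14.1 CPM in siCtrl, 18.8 and 23.4 in siPaf1, 5.73 and 2.87 in siCdc73 and 15.9 in siSki8. It fell after siCdc73 (log2 change -2.07, SE 0.39, adjusted p = 5.37e-05), had a difference of 0.11 after siPaf1 (adjusted p = 0.825), and was higher in siPaf1 than in siCdc73 by 2.18 (adjusted p = 0.0001). Ccnd1, the cell cycle regulator cyclin D1, had 20.9 and 33.4 CPM in siCtrl, 21.6 and 16.2 in siPaf1, 6.73 and 8.09 in siCdc73 and 48.7 in siSki8 in 3'READS. It fell after siCdc73 (log2 change -1.83, SE 0.34, adjusted p = 0.00142), and its siPaf1 difference was -0.50 (SE 0.32, adjusted p = 0.289). Both siCdc73 calls held without each of the 6 replicated libraries in turn. In 3'READS Tcf7 had only 2 to 23 reads a library, and its log2 difference was -0.01 after siCdc73 (SE 1.05, adjusted p = 1.0).

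Cd44, a hyaluronan receptor, went the other way. In RNA-seq it had 530 and 506 CPM in siCtrl, 158 and 150 in siPaf1, 336 and 310 in siCdc73 and 894 in siSki8, so that no groups overlapped. It fell by 1.75 (SE 0.23, adjusted p = 6.26e-07) after siPaf1 and fell by 0.68 (SE 0.22, adjusted p = 0.0138) after siCdc73, and siPaf1 minus siCdc73 was -1.07 (adjusted p = 0.000737). In 3'READS the siPaf1 change was -1.93 (SE 0.30, adjusted p = 0.000423). The siPaf1 calls held without each library, while the siCdc73 call in RNA-seq was lost without siCtrl batch 1 (0.119), siCtrl batch 2 (0.118), siCdc73 batch 1 (0.177) or siCdc73 batch 2 (0.222). Id2, an inhibitor of basic helix-loop-helix factors, had 87.3 and 88.5 CPM in siCtrl, 160 and 146 in siPaf1, 174 and 217 in siCdc73 and 58.6 in siSki8. It rose after siPaf1 by 0.80 (SE 0.27, adjusted p = 0.0491) and after siCdc73 by 1.15 (SE 0.27, adjusted p = 0.00677), the former being kept in only 1 of 6 fits without a library (adjusted p up to 0.348) and the latter lost without siCtrl batch 2 or siCdc73 batch 2 (up to 0.12).

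Upstream in the pathway, more genes rose than fell after siPaf1, where 16.3% of all tested genes rose in RNA-seq and 9.74% in 3'READS. The counts of some lists, such as the transducers in 3'READS, lay near that background. Over all genes, 16.2% fell after siPaf1 in RNA-seq and 9.08% in 3'READS, and 20.5% and 11.8% fell after siCdc73. In lists this short, 0 or 1 lower genes lie near those shares. Of the ligands and their maturation factors, 3 of 5 tested rose and 0 fell in RNA-seq, and 3 of 10 rose and 0 fell in 3'READS, with medians of 0.71 and 0.53 beside 0.02 and 0.08 over all genes. Of the receptors, 5 of 10 and 5 of 16 rose and 0 fell, with medians of 0.65 and 0.64. The RNA-seq count includes Lgr5, which passed the filter there only through the siPaf1 libraries. Whether other genes counted here also did so was not checked, such as Wnt2 among the ligands in 3'READS (log2 change 4.68). The counts of these lists are therefore descriptions. Of the intracellular transducers, 2 of 4 and 1 of 8 rose and 0 fell, with medians of 0.76 and 0.31. Of the nuclear factors, 2 of 6 and 3 of 12 rose and 0 fell (0.55 and 0.60). The destruction complex had 1 of 6 higher and 1 lower in RNA-seq and 2 of 10 higher and 0 lower in 3'READS (-0.18 and 0.14). Of the secreted inhibitors, 1 of 3 and 2 of 5 rose and 0 fell, although the medians were -1.21 and -0.30. After siCdc73, 2 of 10 receptors rose and 1 fell in RNA-seq and 3 of 16 rose and 1 fell in 3'READS (medians 0.36 and 0.72, beside -0.02 and -0.02), and of the ligands 1 of 5 and 1 of 10 rose (-0.03 and -0.57), where 19.4% and 10.8% of all genes rose. Of the nuclear factors, 2 of 6 and 2 of 12 rose after siCdc73 and 1 fell in each assay (0.54 and 0.14). Of the destruction complex, 2 of 6 and 2 of 10 rose and 0 fell (0.05 and 0.35), and of the transducers 0 of 4 and 1 of 8 rose and 0 fell (0.03 and 0.22). Of the secreted inhibitors, 0 of 3 and 1 of 5 rose and 1 fell in each assay (-0.69 and -0.47). After siSki8, the RNA-seq count was 1 lower gene over all lists, Sfrp2, and the 3'READS count was 0, with 7 genes at an unadjusted p under 0.05. Without the block, edgeR called 0 genes of these lists. After siPaf1, 7 of 39 in RNA-seq and 10 of 72 in 3'READS had an edgeR unadjusted p under 0.05. Over all genes tested, 572 higher and 584 lower of 6521 in RNA-seq passed that threshold, and 891 and 812 of 12579 in 3'READS. The lists thus lay near the background. DESeq2 without the block called 4 and 8 genes of the lists after siPaf1, beside 369 and 441 over all genes.

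**Figure D4:**
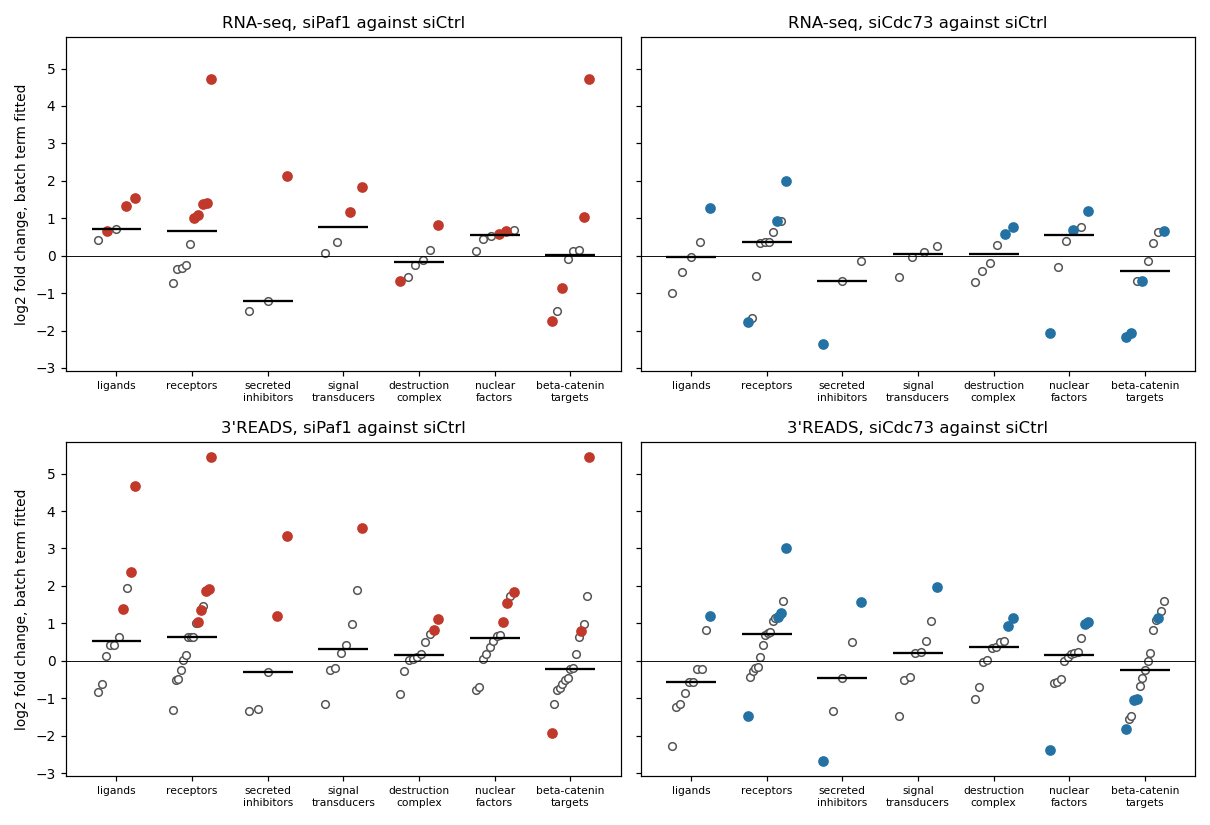
Log2 changes from siCtrl fitted with the batch term for the genes of 7 Wnt lists, after siPaf1 and siCdc73 in RNA-seq and 3'READS. Filled points have an adjusted p under 0.05, open points do not, and the line is the median of the list. The receptor and ligand points after siPaf1 lie mostly above 0 (RNA-seq medians 0.65 and 0.71), while the β-catenin targets spread to both sides (median 0.01), and Lgr5 appears in both the receptor and the target list.

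Wnt4, a secreted ligand, was listed in 3'READS only, at 14.3 and 16.3 CPM in siCtrl, 95.0 and 68.8 in siPaf1, 11.5 and 6.32 in siCdc73 and 10.2 in siSki8. It rose after siPaf1 by 2.36 (SE 0.32, adjusted p = 0.000135) and differed by -0.86 (adjusted p = 0.0687) after siCdc73, so that siPaf1 exceeded siCdc73 by 3.22 (SE 0.33, adjusted p = 4.7e-05). Wnt10a, another ligand, had 14.8 and 12.1 CPM in siCtrl, 36.2 and 32.1 in siPaf1, 14.6 and 11.8 in siCdc73 and 12.5 in siSki8 in RNA-seq. It rose after siPaf1 by 1.32 (SE 0.30, adjusted p = 0.000967) in RNA-seq and 1.38 (SE 0.27, adjusted p = 0.00272) in 3'READS, and stood at -0.03 and -0.22 after siCdc73. Both ligands thus had the siPaf1 pattern of Axin2, and these calls held without each library except that of Wnt10a in 3'READS, which was lost without siCtrl batch 2 (adjusted p = 0.0585).

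Among receptors, Fzd2 had 220 and 195 CPM in siCtrl, 588 and 515 in siPaf1, 357 and 431 in siCdc73 and 222 in siSki8 in RNA-seq. It rose after siPaf1 by 1.41 (SE 0.23, adjusted p = 1.75e-05) and after siCdc73 by 0.92 (SE 0.23, adjusted p = 0.0017), the latter not without siCtrl batch 2 or siCdc73 batch 2 (adjusted p up to 0.176). Fzd5 had 16.2 and 12.6 CPM in siCtrl, 60.9 and 49.4 in siPaf1, 122 and 110 in siCdc73 and 14.2 in siSki8 in 3'READS. It rose by 1.93 (SE 0.28, adjusted p = 0.000269) and 3.00 (SE 0.29, adjusted p = 1.45e-05), and siPaf1 minus siCdc73 was -1.07 (SE 0.27, adjusted p = 0.0158), a call lost without siCdc73 batch 2 (0.167). Fzd1 had 130 and 57.5 CPM in siCtrl, 326 and 156 in siPaf1, 148 and 83.6 in siCdc73 and 38.7 in siSki8 in RNA-seq. It rose after siPaf1 by 1.38 (SE 0.24, adjusted p = 3.72e-05), and siPaf1 exceeded siCdc73 by 1.02 (SE 0.24, adjusted p = 0.00188), a call lost without siCdc73 batch 1 (0.116). In 3'READS Fzd1 also rose after siPaf1, by 1.37 (adjusted p = 0.0155), while siPaf1 minus siCdc73 was 0.62 (adjusted p = 0.256). For Fzd2 that difference was 0.49 in RNA-seq (adjusted p = 0.105). Ror2, a receptor of non-canonical Wnt signals, fell by 1.77 after siCdc73 in RNA-seq (SE 0.40, adjusted p = 0.000543), a call lost without siCtrl batch 1 (0.0647).

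Sfrp2, a secreted Frizzled-related protein that binds Wnt ligands, was the inhibitor that moved most. In RNA-seq it had 34.4 and 10.8 CPM in siCtrl, 125 and 63.9 in siPaf1, 22.4 and 15.0 in siCdc73 and 1.75 in siSki8. It rose after siPaf1 by 2.14 (SE 0.29, adjusted p = 9.78e-07) and fell by 2.74 after siSki8 (adjusted p = 0.000741), the latter from 1 library. In 3'READS the levels were 3.15 and 0.756 CPM in siCtrl, 26.7 and 12.8 in siPaf1, 7.82 and 3.55 in siCdc73 and 0.455 in siSki8, a rise of 3.33 (SE 0.44, adjusted p = 9.33e-05) after siPaf1. The assays differed after siCdc73, with -0.15 (adjusted p = 0.71) in RNA-seq and 1.56 (SE 0.45, adjusted p = 0.0137) in 3'READS, which was lost without siCtrl batch 2 or siCdc73 batch 2 (up to 0.172). Rnf146, a ubiquitin ligase that targets Axin proteins for degradation, rose after siPaf1 by 1.17 (SE 0.24, adjusted p = 0.000313) in RNA-seq, with 72.4 and 116 CPM in siCtrl beside 143 and 293 in siPaf1, with a difference of 0.26 (adjusted p = 0.386) after siCdc73. In 3'READS Rnf146 differed by 0.98 (adjusted p = 0.0857) after siPaf1 and 1.07 (adjusted p = 0.0639) after siCdc73, and siPaf1 minus siCdc73 was -0.09 (adjusted p = 0.901). The siPaf1 calls of Sfrp2 and that of Rnf146 in RNA-seq held without each of the 6 replicated libraries in turn, as did the siSki8 call of Sfrp2, which rests on 1 siSki8 library.

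Csnk1d, a casein kinase 1 isoform of the destruction complex, rose in RNA-seq after both knockdowns, by 0.82 (SE 0.22, adjusted p = 0.00561) and 0.78 (SE 0.22, adjusted p = 0.00642). The siPaf1 call was lost without siCtrl batch 2 (0.151), and the siCdc73 call without siCtrl batch 2, siCdc73 batch 1 or siCdc73 batch 2 (up to 0.184). Porcn, the acyltransferase that lipidates Wnt ligands, rose in RNA-seq after siCdc73 by 1.27 (SE 0.31, adjusted p = 0.00134), which was lost without siCtrl batch 2 (0.0727). In 3'READS Csnk1d and Porcn also rose after siCdc73, by 0.92 (adjusted p = 0.0208) and 1.18 (adjusted p = 0.0478). Each of these calls was kept in 2 of 6 fits without a library. Pygo2, a coactivator that binds the β-catenin complex, rose in RNA-seq after siCdc73 by 1.18 (SE 0.25, adjusted p = 0.000333), which was lost without siCdc73 batch 2 (0.0727). In 3'READS Pygo2 rose after both knockdowns, by 1.04 after siPaf1 (adjusted p = 0.0175) and 1.04 after siCdc73 (adjusted p = 0.0149). These calls were kept in 5 and 4 of 6 fits without a library.

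For Dvl3 and Cd44, the position of the reads within the gene differed between groups, and both were chosen for this after their sites were seen. Their tests of site classes use the same counts, so they are given as a description and are no support. With the block, such a shift was called in 23% of 1766 genes after siPaf1 and 23.2% after siCdc73. Without the block these shares were 2.38% and 4.13%. Dvl3 encodes a Dishevelled protein, and its leading sites are shown because they moved apart.
Dvl3 intron, chr16:20517765-20517794 (plus strand): atttaagcataaagttggagtatattgaca
Dvl3 site assigned to the 3'-most exon, chr16:20531717-20531746: actgctactgtttgctggtagcagcaagga
Cd44 intron, chr2:102692838-102692867 (minus strand): aacagtgcctccgacctgttacagaaataa
Cd44 3'UTR, chr2:102651541-102651570: gaaaatATTAAAaggttgtaaaaaatggaa
Only the Cd44 3'UTR window carries a signal, and the Dvl3 site assigned to the 3'-most exon lies in an intron of the GENCODE model. The Dvl3 intronic site took 3 and 2 reads in siCtrl, 238 and 171 in siPaf1, 26 and 34 in siCdc73 and 19 in siSki8, beside 4 and 16, 5 and 0, 10 and 35, and 6 at the other site. Summed over sites, Dvl3 was thus higher after siPaf1 by 3.53 (SE 0.50, adjusted p = 0.000151), but over the 3'-most exon alone the difference was -1.42 (adjusted p = 0.315). The ratio of upstream to 3'-most reads rose by 8.30 on the log2 scale (SE 1.67, adjusted p = 0.0334) without the block and by 8.07 (SE 1.33, adjusted p = 3.26e-08) with it, and this held without each library (adjusted p up to 0.00428) and without the 5% filter. The ratio was also higher in siPaf1 than in siCdc73, by 5.70 (SE 1.13, adjusted p = 4.43e-05, against 5.1% of genes called), a call lost without siPaf1 batch 2 (0.233) or siCdc73 batch 2 (0.0836).

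In Cd44, upstream sites took 17 and 22 reads in siCtrl, 27 and 62 in siPaf1, 73 and 167 in siCdc73 and 36 in siSki8, beside 334 and 929, 115 and 204, 98 and 559, and 1385 in the 3'-most exon. The ratio rose after siCdc73 by 3.93 (SE 0.62, adjusted p = 1.03e-08) and after siPaf1 by 2.60 (SE 0.64, adjusted p = 0.000606). Without the block the adjusted p-values were 0.057 and 0.171, and the siPaf1 call was lost without siCtrl batch 2 (0.0546) or siPaf1 batch 2 (0.132). Between siPaf1 and siCdc73 the ratio differed by -1.33 (SE 0.60, adjusted p = 0.189), so an unequal shift was not shown, while the total level of Cd44 was lowest in siPaf1 in both assays.

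**Figure D5:**
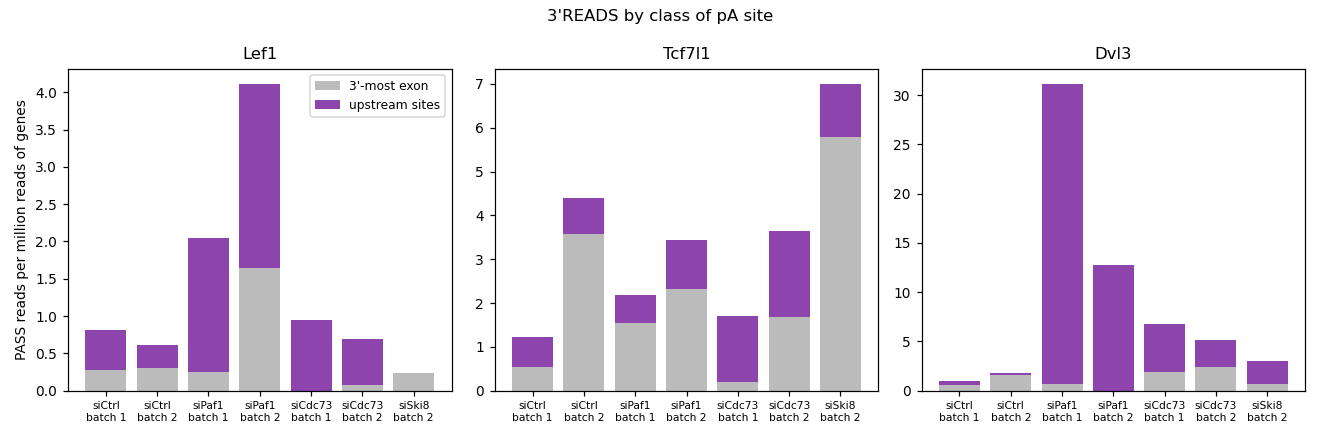
PASS reads of Lef1, Tcf7l1 and Dvl3 in each library, per 1000000 gene reads without further scaling, split into the 3'-most exon (grey) and upstream exons or introns (purple). Upstream reads make up nearly all of the Dvl3 reads in the siPaf1 libraries (238 and 171 reads at the leading site), whereas the Lef1 and Tcf7l1 bars rest on at most 55 and 58 reads.

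A TCF/LEF core motif, ATCAAAG on either strand, was looked for in the RefSeq promoter windows (GRCm38.p6) that run from 250 bases before to 50 bases after the start. It was in 0 of 12 windows of the 7 members that matched, and in 1225 of 32851 windows overall (3.73%), and nothing can be drawn about the factors from its absence in so short a window.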

How the data were processed

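RNA-seq and 3'READS libraries were used, 7 of each, and the ChIP-seq samples were not analysed here. For RNA-seq the authors ran bowtie2 (local mode, mm9) and deposited counts per RefSeq transcript, over coding regions, without normalization. The deposited table also holds RPKM values, which the authors scaled by transcript length and by the total of uniquely mapped reads. For 3'READS the authors deposited counts of PASS reads per pA site, without normalization. Software versions are not given in the sources used here, and 0 per-sample columns were left unmatched.

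The RNA-seq value of a gene was that of its most highly counted transcript, and the 3'READS value was the sum of its sense pA sites. Counts were tested in R 4.3.3 with edgeR 4.0.16 (quasi-likelihood test, TMM, filterByExpr, all libraries in a single fit), p-values were adjusted by Benjamini-Hochberg over all genes tested, and 0.05 was the threshold of a call. The methods of the study use no batch term, so the fit without it was kept as the reference, and results with the batch as a block are printed where they change calls. The labels give the batches, and across genes the batch 2 to batch 1 differences of any pair of groups were correlated, at r = 0.62, 0.748 and 0.633 in RNA-seq and 0.433, 0.61 and 0.432 in 3'READS. For site classes, upstream sites were tested against sites of the 3'-most exon by the isoform by knockdown interaction, with sites under 5% of a gene left out, in genes averaging 20 reads per library or more. RPKM values served only to compare Axin2 with other genes. DESeq2 1.42.0 was the alternative tool, with Python 3.11.15, pandas 2.3.3, numpy 2.4.6, scipy 1.17.1 and matplotlib 3.10.9. The scripts were tested on simulated data. Alternatives were the normalization, the filters, the tool, the transcript or sites used, pooled reads with Fisher's exact test, the block and leaving out each replicated library. Site choices under the block, the upstream antisense reads of Gsk3b and the site classes of Dvl3 and Cd44 were added after the data were seen.

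The members and the gene lists were chosen with earlier results of these data known. Besides the members and the siRNA targets, named genes are at most 2 per list, comparison, assay and direction, those with the smallest adjusted p in the fit with the block among genes averaging 50 reads per library or more, and the 5 genes most like Axin2. Sox9, given as 1 of 3 genes in a count, was named after its values were seen.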

Additional observations from a re-analysis of the deposited data

Results flagged for a closer look

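PASS reads upstream of a start site on the opposite strand lie outside the gene levels compared above. At the 2 upstream antisense sites of Gsk3b they numbered 5 and 12 in siCtrl, 25 and 43 in siPaf1, 45 and 229 in siCdc73 and 8 in siSki8. As CPM of all PASS reads these were 0.678 and 1.23 in siCtrl, 3.2 and 3.21 in siPaf1, 8.51 and 16.0 in siCdc73 and 0.966 in siSki8, and all 4 siPaf1 and siCdc73 values were above the control libraries. Relative to its sense reads, the antisense reads of Gsk3b differed by 3.71 on the log2 scale after siCdc73 (SE 1.20, edgeR adjusted p = 0.051 with the block, 0.375 without it) and by 1.65 after siPaf1 (adjusted p = 0.486 with the block). The median of this difference over all genes tested was 1.06 after siCdc73, and 3.34% of 867 genes were called. No group had enough libraries for a test of outliers.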

How the results depend on the processing

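Counts are given in the order siPaf1, siCdc73, siSki8, siPaf1 against siCdc73. In the comparisons other than siSki8, 4 members and 39 pathway genes were tested in RNA-seq, and 8 and 72 in 3'READS. Over all genes, these comparisons gave 2122, 2601 and 1841 calls of 6521 with the block in RNA-seq. In 3'READS they gave 2367, 2832 and 1809 of 12579. Fisher's exact test on pooled reads gave 3067, 3488 and 2934 calls of 6521, and 6711, 6608 and 6562 of 12579. Without the block all counts of called members and pathway genes in both assays were 0. With the replicate block they became 2, 1, 0 and 1 members and 18, 13, 1 and 14 pathway genes in RNA-seq, 18, 17, 0 and 16 pathway genes in 3'READS, and 1 member for CDS-APA after siCdc73; the paired fit changed no other such count. Fisher's exact test on pooled reads, blind to the spread between libraries, gave 3, 2, 2 and 3 members and 27, 18, 19 and 21 pathway genes in RNA-seq, and 4, 3, 3 and 3 members and 46, 42, 31 and 42 pathway genes in 3'READS. DESeq2 without the block gave 4, 1, 1 and 4 pathway genes in RNA-seq and 8, 3, 0 and 3 in 3'READS. Over all genes and siSki8 aside, that DESeq2 fit called 369, 519 and 159 genes in RNA-seq and 441, 628 and 196 in 3'READS. Without a filter on low counts, pathway calls were 2 after siPaf1 in RNA-seq, and 1 after siPaf1 and 1 after siCdc73 in 3'READS. All genes called there were 149 of 7906 in RNA-seq, and 20 and 22 of 15777 in 3'READS. Leaving out a library without the block gave 0 to 1 pathway genes after siPaf1 in RNA-seq.

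With the block, DESeq2 gave 1 member after siPaf1 and 0 in siPaf1 against siCdc73 in RNA-seq. After siSki8, 1 member (Tcf7l2) was called with RLE size factors, library size alone or no filter, and 2, 4 and 3 pathway genes, and in 3'READS 1 pathway gene without the filter. Leaving out a library with the block gave 0 to 2, 0 to 1, 0 to 1 and 0 to 1 members and 9 to 17, 6 to 18, 1 to 7 and 6 to 17 pathway genes in RNA-seq. In 3'READS it gave 0 to 1 members after siPaf1 and 0 to 2 after siCdc73, 8 to 21, 6 to 29, 0 to 2 and 7 to 18 pathway genes, and 0 to 1 member for CDS-APA after siCdc73. Without the 5% site filter, CDS-APA with the block gave 1 member after siPaf1 (Apc) and 0 after siCdc73. Dvl3 in 3'READS, summed over the 3'-most exon only with the block, reversed to -1.42 after siPaf1 and -2.44 in siPaf1 against siCdc73, since its upstream site is then left out. For the other changes the cause was not tested.

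Over all settings, 6518 of 7356 single-gene values kept their direction and side of the threshold, 362 passed it newly and 156 no longer passed. Another 318 moved: tested values that changed sign with no call in either fit, or untested Axin2 values that shifted by more than their SE. The remaining 2 changed sign with a call in at least 1 of the fits. With the block, library size as the only scaling took the median log2 difference of all genes in RNA-seq from -0.021 to -0.187 after siCdc73, from 0.022 to -0.227 after siSki8 and from 0.025 to 0.201 in siPaf1 against siCdc73, and in 3'READS from 0.075 to 0.172 after siPaf1 and from 0.051 to 0.237 in siPaf1 against siCdc73. Of the calls of genes named by the rule, 14 of 33 in RNA-seq and 13 of 35 in 3'READS held without each of the 6 replicated libraries in turn. Depth limits Axin2, Lef1, Nkd1, Znrf3, Tcf7l1 and Tcf7l2 in 3'READS, and the siSki8 values rest on 1 library.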
